A study of Homo sapiens with 2 samples.

Results

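The 7 genes described here encode the glucose transporter SLC2A1 (GLUT1), the glycolytic enzymes HK2, ALDOC, PGK1, ENO2 and LDHA, and the lactate exporter SLC16A3 (MCT4). They were chosen by name from a table of 1947 genes, with their levels in this comparison already known, so their ratios describe the choice and were not tested. The cells were C4-2, a long-established line of human prostate cancer that descends from LNCaP and carries the androgen receptor. Polyadenylated RNA was sequenced from 1 culture given vehicle and 1 culture given ebastine, an antihistamine that blocks the histamine H1 receptor. Both cultures were of unmodified C4-2 cells at passage 10 to 15 and differed, per the labels, only in the agent. Neither dose nor exposure time is stated in the sources used here. With 1 library per group there is no spread between replicates, and no p-value for an effect of ebastine was computed. In bulk RNA, fewer cells of a type and less RNA per cell cannot be told apart.

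Glycolysis splits glucose into pyruvate and yields ATP without oxygen. When pyruvate is reduced to lactate, the NAD+ that the pathway consumes is restored, and lactate leaves the cell through monocarboxylate transporters. Many genes of the pathway carry binding sites for the hypoxia-inducible factors and rise when oxygen is short. Normal prostate epithelium is known for secreting citrate and relying little on glycolysis, and glucose use is known to increase in advanced prostate cancer.

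The sequence upstream of 4 of the genes is printed because these include the genes with the most and the least abundant transcripts of the 7, the gene with the lowest ratio and the single gene that was higher with ebastine. The sequences are from RefSeq (GRCh38.p14) and give the 250 bases before an annotated start, 5′ to 3′ on the gene's strand. Capitals mark ACGTG and GCGTG on either strand, the core letters of the hypoxia response element (their reverse complements read CACGT and CACGC).
PGK1, chrX:78103998-78104247, plus strand: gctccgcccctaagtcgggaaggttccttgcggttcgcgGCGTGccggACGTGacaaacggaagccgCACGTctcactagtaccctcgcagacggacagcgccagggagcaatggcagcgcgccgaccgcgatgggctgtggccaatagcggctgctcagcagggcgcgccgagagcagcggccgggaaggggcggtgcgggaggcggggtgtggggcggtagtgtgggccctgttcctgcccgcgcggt
LDHA, the upstream one of its 2 starts, chr11:18394313-18394562, plus strand: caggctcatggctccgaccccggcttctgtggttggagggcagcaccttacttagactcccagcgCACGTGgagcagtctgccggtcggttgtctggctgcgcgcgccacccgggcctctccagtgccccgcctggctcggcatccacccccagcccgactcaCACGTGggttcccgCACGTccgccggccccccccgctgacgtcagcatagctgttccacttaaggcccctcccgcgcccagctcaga
ENO2, chr12:6914330-6914579, plus strand: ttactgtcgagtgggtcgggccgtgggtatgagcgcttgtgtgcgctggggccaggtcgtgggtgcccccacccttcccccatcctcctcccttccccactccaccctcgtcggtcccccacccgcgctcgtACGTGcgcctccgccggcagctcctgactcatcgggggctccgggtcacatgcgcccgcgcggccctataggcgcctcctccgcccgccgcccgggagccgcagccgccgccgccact
ALDOC, chr17:28576896-28577145, minus strand: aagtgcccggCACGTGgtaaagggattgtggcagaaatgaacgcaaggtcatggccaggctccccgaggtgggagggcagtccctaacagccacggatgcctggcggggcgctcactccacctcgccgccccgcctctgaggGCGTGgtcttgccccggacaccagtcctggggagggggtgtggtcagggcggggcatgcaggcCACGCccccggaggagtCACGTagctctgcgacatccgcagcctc

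In PGK1 the capitals formed 3 separate stretches, between 211 and 179 bases before the start. The upstream LDHA start also had 3, of which 2 were the palindrome CACGTG, which reads as ACGTG on both strands. The downstream LDHA window, not printed, held only 1 stretch, a CACGC. ENO2 had 1 stretch, at 118 to 114 bases before the start. ALDOC had 4, and its most distal one was a CACGTG at 240 to 235 bases. Among the printed windows, that of the gene that was higher with ebastine held at least as many stretches as the others. The downstream HK2 window, not printed, also held 4 stretches, and HK2 was lower. A link between stretches and ratios was not tested. All 7 genes matched RefSeq, with 13 annotated starts in all, and 10 of the 13 windows held ACGTG or GCGTG. The only start of SLC2A1 held neither, which says only that these letters are not in this window. Among 35116 RefSeq starts, 43.2% held either motif in the same window, and among the 1911 starts of table genes averaging 1 FPKM or more, 55.2% did. These letters are short and common in GC-rich sequence (the printed windows were 68.4 to 74.0% G or C), and a match is not a binding site. Which start C4-2 cells use was not measured here.

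Of the 7 genes, 6 were lower and ALDOC was higher in the ebastine library. Levels are in FPKM (fragments per kilobase of transcript and per 1000000 mapped fragments), which can be compared between genes. Ratios are log2((FPKM with ebastine + 1)/(FPKM with vehicle + 1)), and every fold of a single gene below is on that scale, which understates the change of low genes. Ratios between genes within a library, their folds, and folds of sums were taken from FPKM without the added 1. The limit for a call was 1.5-fold, and 4 of the 7 passed it downward (HK2, PGK1, ENO2 and SLC16A3) and 0 upward. Of the 1768 listed genes averaging 1 FPKM or more, 18.6% passed it downward and 9.67% upward. LDHA lay just short of the limit, at a log2 ratio of -0.58 (1.496-fold). The median log2 ratio of the 7 genes was -0.59, beside -0.32 for the 1768 listed genes. Since the genes were picked from this contrast, nothing is read from these comparisons.

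Uptake and trapping of glucose come before the other steps. SLC2A1, the main glucose transporter of many proliferating cells, stood at 27.1 FPKM (vehicle) and 19.2 FPKM (ebastine). That is a 1.39-fold lower level, the smallest ratio among the 6 genes that were lower. Its reported locus (hg19, chromosome 1, 43391046 to 43449029) spans 58.0 kb, while the RefSeq gene (GRCh38.p14) is 33.5 kb long. The gene models behind the reported locus are not stated. Whether the value includes reads from a neighbouring gene was not tested. HK2, a hexokinase isoform that phosphorylates glucose at the outer mitochondrial membrane, stood at 21.5 FPKM (vehicle) and 13.9 FPKM (ebastine) (hg19, chromosome 2, 75059782 to 75120481). It was 1.51-fold lower, only just past the limit. The SLC2A1 transcript was 1.26 times as abundant as that of HK2 with vehicle and 1.38 times with ebastine, so this pair moved nearly in step.

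ALDOC was the only one of the 7 that was higher. It encodes aldolase C, the isoform best known from brain, which cleaves fructose 1,6-bisphosphate into 2 triose phosphates. It stood at 99.7 FPKM (vehicle) and 140.7 FPKM (ebastine), a log2 ratio of 0.49 (1.41-fold), and ranked 261st from the highest ratio of 1768. In the authors' deposited table its q-value was 0.0136. Its reported locus (hg19, chromosome 17, 26900133 to 26903951) spans 3.82 kb and matches the reference gene of 3.78 kb closely. The muscle-type aldolase ALDOA is not among the listed genes, so whether total aldolase transcript differed is not known.

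PGK1 had the lowest ratio of the 7. It encodes phosphoglycerate kinase 1, which makes the first ATP of the pathway's payoff phase. It went from 818 FPKM with vehicle to 408 FPKM with ebastine (hg19, chromosome X, 77359666 to 77382324), a 2.00-fold difference, and ranked 86th from the lowest ratio of 1768. By mean FPKM it ranked 20th of the same 1768, so this was a large difference in an abundant transcript. ENO2, the enolase isoform of neurons and neuroendocrine cells, had the lowest level of the 7. It stood at 14.1 FPKM (vehicle) and 8.20 FPKM (ebastine) (hg19, chromosome 12, 7023614 to 7032859), 1.64-fold lower. None of the 4 other neuroendocrine markers looked up (CHGA, SYP, NCAM1 and INSM1) is listed. Their levels are not known, since the table holds only genes past the authors' p-value limit.

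Lactate production and export end the route. LDHA, the lactate dehydrogenase subunit that favours the reduction of pyruvate, was the most abundant of the 7 in both libraries, at 963 FPKM (vehicle) and 643 FPKM (ebastine) (hg19, chromosome 11, 18415936 to 18429765). SLC16A3, a lactate exporter typical of glycolytic cells, stood at 74.7 FPKM (vehicle) and 47.9 FPKM (ebastine) (hg19, chromosome 17, 80186282 to 80197375). The exporter was 1.55-fold lower, close to the 1.496-fold of LDHA. Within a library the SLC16A3 level was 0.0776 of the LDHA level with vehicle and 0.0745 with ebastine, so the enzyme and the exporter kept almost the same proportion. The reported locus of SLC16A3 spans 11.1 kb, against 22.2 kb for the RefSeq gene with its 5 annotated starts.

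**Figure D1:**
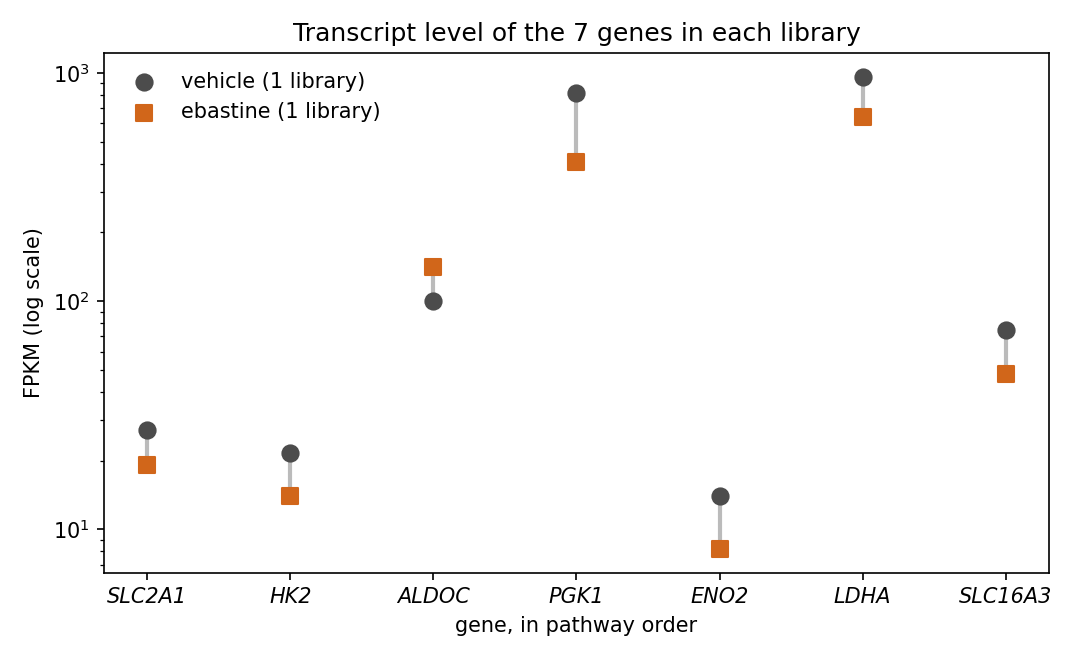
FPKM (vertical log axis) of each of the 7 genes in pathway order, as a circle for the vehicle library and a square for the ebastine library, joined by a line; each point is 1 library, so there are no error bars. The square lies below the circle in 6 genes and above it in ALDOC, and the largest gap is that of PGK1, from 818 to 408 FPKM.

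The order of the levels was the same in both libraries: LDHA, PGK1, ALDOC, SLC16A3, SLC2A1, HK2 and ENO2 from high to low. The highest level was 68.5 times the lowest with vehicle and 78.4 times with ebastine. Without replicates it cannot be said which neighbours in that order differ beyond their spread. All 7 genes lay below a q-value of 0.05 in the authors' deposited table, as did 42.3% of the 1768 listed genes. For HK2, PGK1, ENO2, LDHA and SLC16A3 the deposited p-value was 5e-05, the smallest in the table, which 385 genes share, with a q-value of 0.00178. That test had 1 library on each side, so its result is about the libraries, not about the treatments.

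Reads can also be split between near-identical copies. In GENCODE 29, 6 pseudogenes are named after LDHA, 1 after PGK1 and 1 after HK2. How the authors' counting treated reads that fit several places is not stated in the sources used here, and the values of these 3 genes are uncertain to that extent. None of the 7 reported loci overlapped that of another listed gene.

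**Figure D2:**
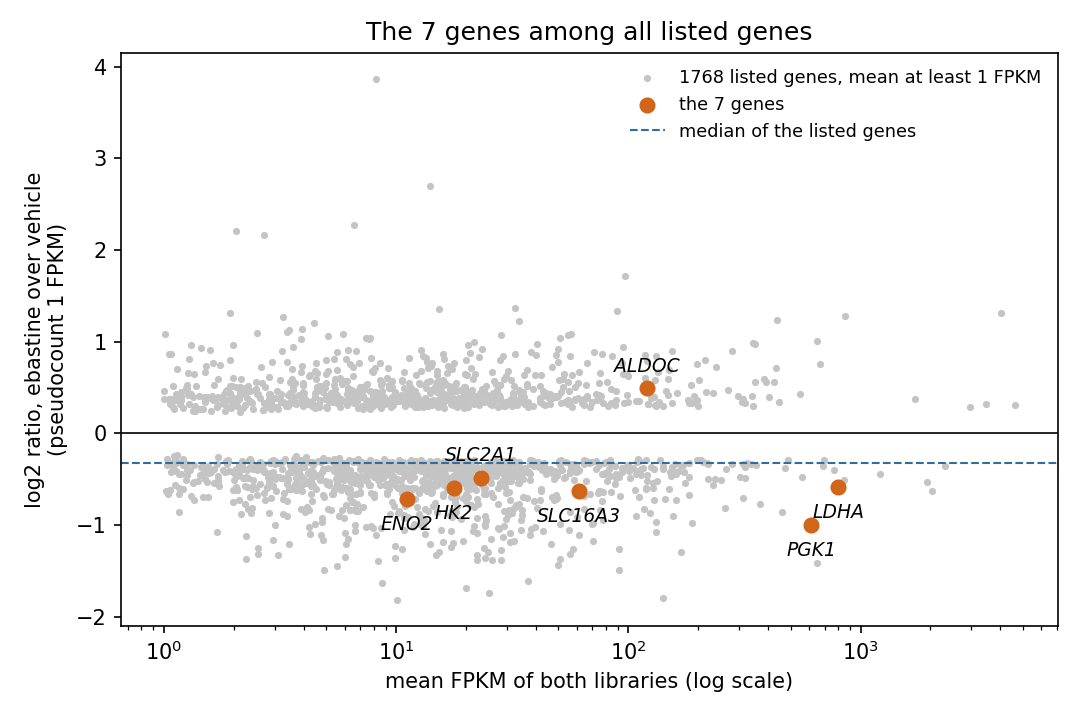
Log2 ratio of ebastine over vehicle against mean FPKM (log axis) for the 1768 listed genes averaging 1 FPKM or more (grey) and the 7 genes (orange); the dashed line is the median of the listed genes, -0.32. The empty band around 0 arises because the table holds only genes with a deposited p-value under 0.05; PGK1 and LDHA lie at the abundant end and ALDOC alone lies above 0.

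The rest of the pathway was looked up from lists that held each step's genes. The glycolysis list had 26 genes over 11 enzyme steps including lactate dehydrogenase. Of these, 11 were in the table, covering 10 of the 11 steps, and the step with no listed gene was glyceraldehyde phosphate dehydrogenase. The table holds 14.2% of the 13714 tests that the authors' q-values imply, and 42.3% of this list was in it, although how many of the 26 were tested is unknown. The 11 listed genes include 5 of the 7 genes. Of the 11, 10 were lower, where 57% of the 1768 listed genes were. By at least 1.5-fold 3 were lower (HK2, PGK1 and ENO2), as were 18.6% of the 1768. The median log2 ratio of the 11 was -0.52, beside -0.32 for the 1768. After centring, a rescaling described below, the median of the 11 was -0.19. Genes outside the table went untested or had a p-value above its limit, so a median over the listed ones overstates any change of the pathway as a whole.

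The 6 listed enzymes outside the 7 genes were all lower by 1.28 to 1.45-fold, and 0 of them reached 1.5-fold. After centring their log2 ratios ran only from -0.21 (PFKP) to -0.02 (PKM), so the size of their lowering depended on the scaling. PFKP, a phosphofructokinase that commits sugar to glycolysis, stood at 152 FPKM (vehicle) and 104 FPKM (ebastine). GPI, which turns glucose 6-phosphate into fructose 6-phosphate, stood at 259 and 183 FPKM. ENO1, the main enolase, had the highest level of the 11 listed glycolysis genes, at 2288 and 1590 FPKM. These 3 lay below a q-value of 0.05 in the authors' deposited table. TPI1 (triose phosphate isomerase) at 874 and 664 FPKM, PGAM1 (phosphoglycerate mutase) at 535 and 413 FPKM and PKM (pyruvate kinase) at 775 and 604 FPKM did not, with q-values of 0.0906, 0.123 and 0.180 in that table. ENO1, TPI1, PGAM1 and PKM also have 4, 4, 13 and 5 pseudogenes named after them.

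Summed over the 11 listed glycolysis genes, the level was 6798.6 FPKM (vehicle) and 4773.3 FPKM (ebastine), a 1.42-fold difference. ENO1 made up 33.6% of that sum with vehicle and 33.3% with ebastine. The share of PGK1 went from 12.0% to 8.55%, while ALDOC went from 1.47% to 2.95%. In percentage points the share of PGK1 shifted most, and as a ratio that of ALDOC, while the most abundant of them, ENO1, kept nearly the same share.

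Ratios within a library do not move with the scaling between libraries. The pairs below were chosen after their values were seen. PGK1 was 0.936 of TPI1 with vehicle and 0.615 with ebastine, a 1.52-fold lower ratio. Against PGAM1, the enzyme of the next step, it went from 1.53 to 0.988, also 1.55-fold lower. PGK1 was thus lower relative to TPI1 and PGAM1, whatever the scaling. The step between TPI1 and PGK1, glyceraldehyde phosphate dehydrogenase, has no listed gene, so PGK1 was not set against it. ALDOC over PGK1 went from 0.122 to 0.345, a 2.83-fold higher ratio. ENO2 was 0.611% of the sum of ENO1 and ENO2 with vehicle and 0.513% with ebastine, so nearly all of the listed enolase transcript was ENO1 in both.

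Among the 14 transporters and chaperones on the list 5 were in the table. Besides SLC2A1 and SLC16A3 they were SLC2A6, SLC2A3 and SLC16A7. SLC2A6, a lysosomal sugar transporter, stood at 7.68 FPKM (vehicle) and 11.2 FPKM (ebastine), 1.41-fold higher. SLC2A3, the high-affinity glucose transporter GLUT3, stood at only 0.524 and 0.154 FPKM, and SLC16A7, the lactate and pyruvate carrier MCT2, at 1.07 and 0.783 FPKM. Both were too low to enter the counts. The lactate carrier SLC16A1 and its chaperone BSG are not among the listed genes.

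Of 12 enzymes and other regulators that set the direction of flux 5 were listed, 4 lower and 1 higher, where 57% of the 1768 listed genes were lower. By at least 1.5-fold 3 were lower, as were 18.6% of the 1768. The median log2 ratio of the 5 was -0.78, beside -0.32 for the 1768. PFKFB3 and PFKFB4 make fructose 2,6-bisphosphate, the activator of phosphofructokinase. PFKFB3 stood at 18.6 FPKM (vehicle) and 10.3 FPKM (ebastine) and PFKFB4 at 15.8 and 8.69 FPKM, 1.73-fold and 1.74-fold lower. PDK1, a kinase that inactivates pyruvate dehydrogenase, stood at 41.7 and 23.8 FPKM, 1.72-fold lower. These 3 ratios were lower than those of 6 of the 7 genes, PGK1 being the exception. PDK3 was 1.44-fold lower and PFKFB2 1.41-fold higher, with q-values of 0.142 and 0.105 in the authors' deposited table.

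Of the pentose phosphate genes looked up 33.3% were listed, and of those of pyruvate entry and the TCA cycle 8.7%, beside 14.2% of the authors' tests. The pentose phosphate pathway makes NADPH and ribose from glucose 6-phosphate. Of the 6 genes looked up 2 were listed, both higher and 1 of them by at least 1.5-fold. Among the 1768 listed genes 57% were lower and 9.67% were at least 1.5-fold higher. PGD, which produces NADPH, stood at 104 FPKM (vehicle) and 157 FPKM (ebastine). PGLS, which makes the substrate of PGD, stood at 38.7 and 48.4 FPKM with a q-value of 0.317 in the authors' deposited table.

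Of 23 genes of mitochondrial pyruvate entry and the TCA cycle 2 were listed, and both were higher, where 57% of the 1768 listed genes were lower. The list does not hold every enzyme of the cycle: IDH2, a mitochondrial isocitrate dehydrogenase looked up after the values were seen, was lower, at a log2 ratio of -0.42. MPC1, a subunit of the mitochondrial pyruvate carrier, stood at 32.9 FPKM (vehicle) and 51.6 FPKM (ebastine), 1.55-fold higher. OGDH, a subunit of the oxoglutarate dehydrogenase complex, stood at 69.0 and 87.2 FPKM, with a q-value of 0.192 in the authors' deposited table. LDHA over MPC1, which stand at alternative fates of pyruvate, went from 29.3 to 12.5, a 2.35-fold lower ratio. The partner subunit MPC2 and the subunits of pyruvate dehydrogenase are not among the listed genes.

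In the side branches 22.2% of the glycogen genes and 28.6% of the glycerol and serine genes were listed, beside 14.2% of the authors' tests. Of 9 glycogen genes 2 were listed, the branching enzyme GBE1 at 19.4 and 12.9 FPKM and the phosphorylase PYGL at 32.1 and 26.0 FPKM, the latter with a q-value of 0.351 in the authors' deposited table. The direction of PYGL turned after centring, to a log2 ratio of 0.03. Of 7 genes of the glycerol and serine branches 2 were listed, GPD2 at 20.8 and 15.8 FPKM and the low GPD1 at 0.389 and 1.20 FPKM. None of 6 gluconeogenesis genes is listed.

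**Figure D3:**
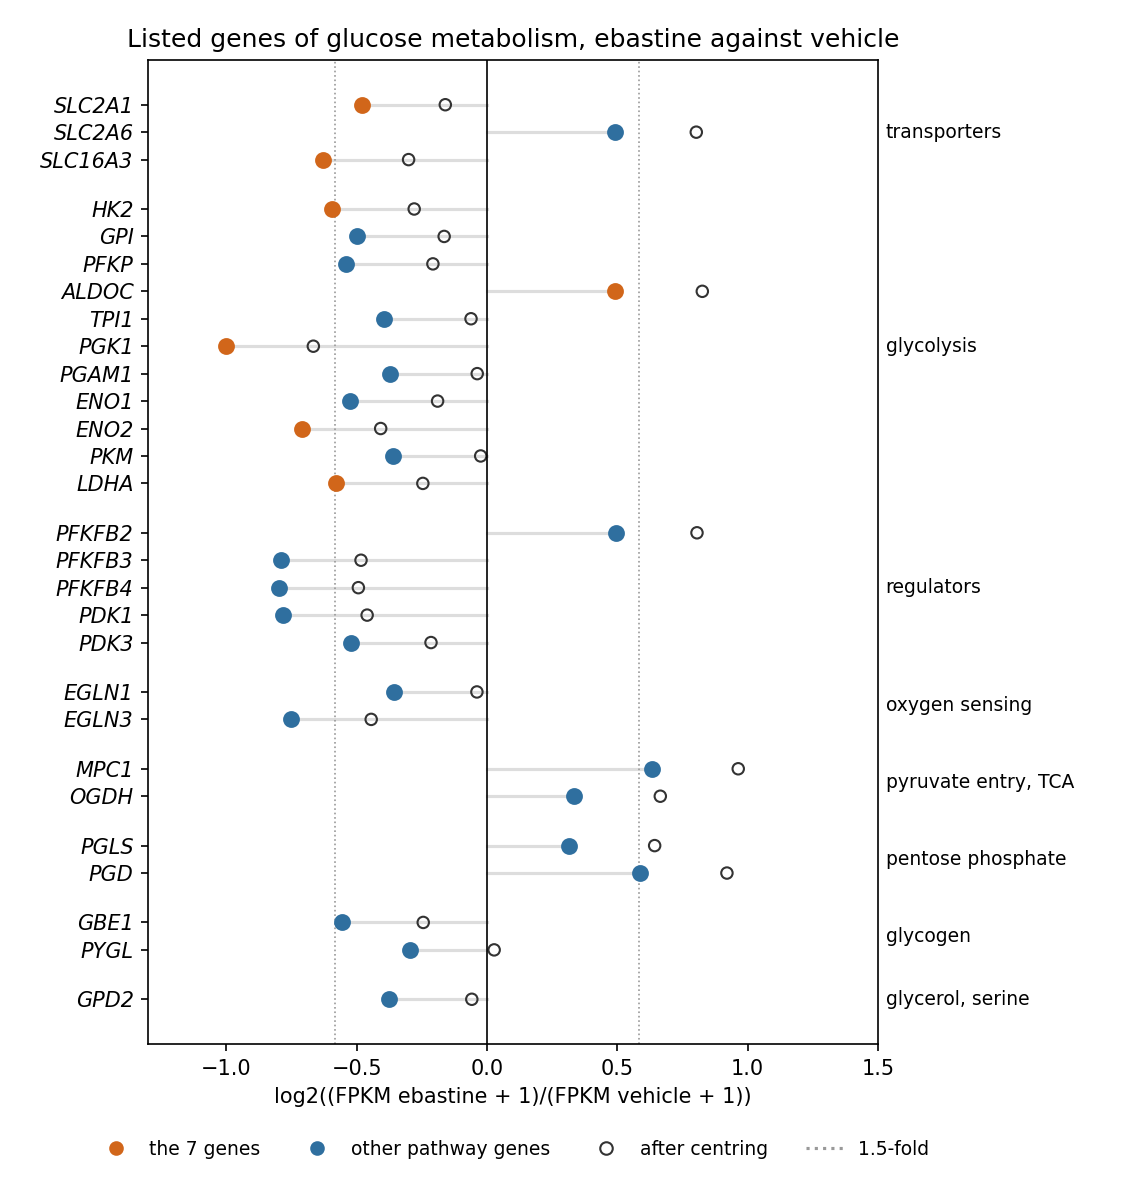
Log2 ratio of ebastine over vehicle for every listed gene of the glucose metabolism lists averaging 1 FPKM or more; filled points are values as deposited (orange for the 7 genes, blue for others), open circles are values after centring and dotted lines mark 1.5-fold. The listed glycolysis genes lie left of 0 except ALDOC, and the listed genes of the pentose phosphate pathway and of pyruvate entry lie right of 0 in both scalings.

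Of the oxygen sensing genes looked up 25.0% were listed, and of the hypoxia-induced genes 72.7%, beside 14.2% of the authors' tests. Of 8 genes of oxygen sensing 2 were listed, the prolyl hydroxylases EGLN3 at 18.8 FPKM (vehicle) and 10.7 FPKM (ebastine) and EGLN1 at 23.4 and 18.1 FPKM. Of these, EGLN1 had a q-value of 0.214 in the authors' deposited table. HIF1A, EPAS1 and ARNT, which encode subunits of the factors, are not among the listed genes. Of 22 hypoxia-induced genes outside glycolysis 16 were listed, and all 15 that averaged 1 FPKM or more were lower, 8 of them past 1.5-fold. Among the 1768 listed genes 57% were lower and 18.6% passed that limit downward. The median log2 ratio of the 15 was -0.69, and the 2 lowest were CA9 at -1.36 and PLOD2 at -1.36. CA9 was low, at 3.70 FPKM (vehicle) and 0.827 FPKM (ebastine), with a q-value of 0.177 in the authors' deposited table. Its reported locus spans 22.9 kb, against 7.23 kb for the RefSeq gene, and overlaps that of 1 other listed gene. PLOD2 stood at 14.6 and 5.09 FPKM, with a q-value of 0.00178 in that table. Centring left 14 of the 15 lower, at a median of -0.37. Both lists come from the same libraries as the 7 genes and were known to be lower when they were chosen, so they are no independent support.

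The genes whose pattern was most like that of each of the 7 were found by the distance between genes in log2 mean FPKM and log2 ratio, over the 2 libraries. ENO2 lay nearest to ARHGAP19 (distance 0.0215) and CRISP3, and HK2 to CEP78 (0.0267) and RCN3. LDHA lay nearest to H2AFZ (0.0418), which stood at 933 and 632 FPKM, and to GDF15. SLC16A3 lay nearest to TMPO (0.0459) and WDR34. SLC2A1 lay nearest to EZH2 (0.0537), at 26.2 and 18.4 FPKM, and to GINS1. ALDOC lay nearest to TCEAL4 (0.112) and MAT2A. PGK1 had no close match: its nearest were ODC1 (0.416), at 944 and 355 FPKM, and BNIP3 (0.436), at 594 and 328 FPKM. With 2 libraries, such likeness means only a similar level and a similar ratio.

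The direction of the 7 genes held under every scaling tried, but their size did not. Centring, which sets the median ratio of listed genes averaging 10 FPKM or more to 0, shifts log2 ratios by up to about 0.34, and making the upper quartiles equal shifts them by up to about 0.19, with smaller shifts for low genes because of the pseudocount. Centring left 6 of the 7 lower, at a median of -0.28. PGK1 alone was then at least 1.5-fold lower, at -0.67, and ALDOC passed 1.5-fold upward, at 0.83. SLC2A1 stood at -0.16, LDHA at -0.25 and HK2 at -0.28 under that setting. Both rescalings were computed on the filtered table, in which 57% of genes averaging 1 FPKM or more were lower, and which scaling fits the cells was not tested.

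**Figure D4:**
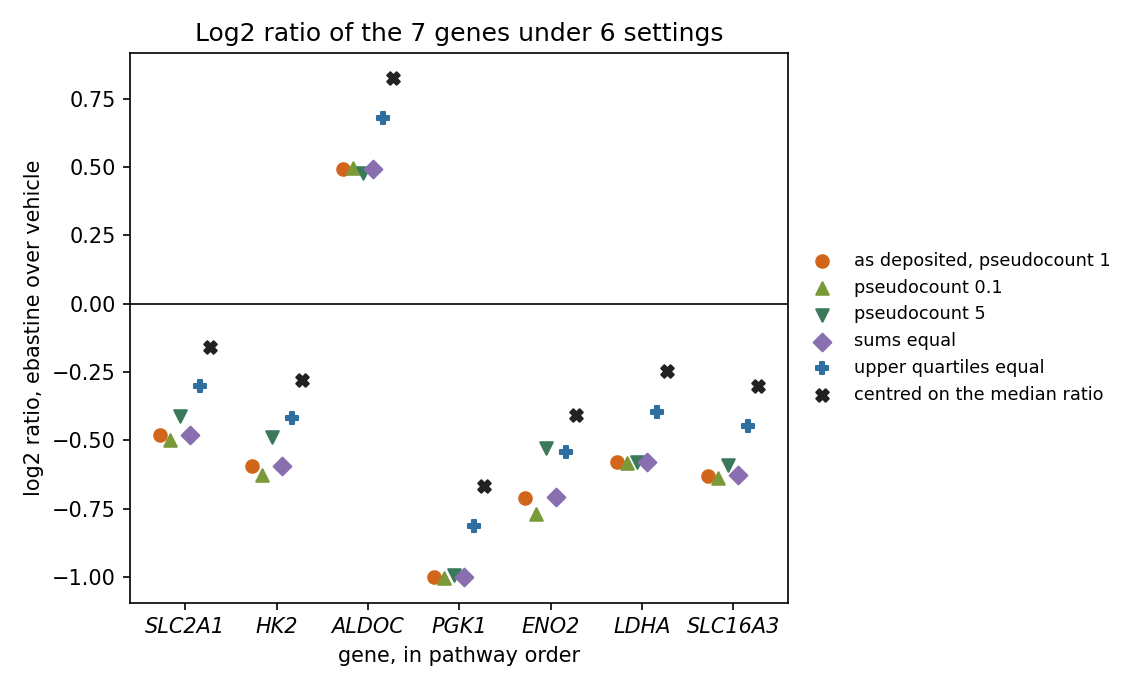
Log2 ratio of ebastine over vehicle for the 7 genes under 6 settings, 1 symbol per setting. ALDOC stays above 0 and the other 6 genes stay below 0 under all of them; centring on the median ratio gives the values highest on the axis, from -0.67 for PGK1 to 0.83 for ALDOC.

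The labelled cell line was checked against markers of luminal prostate cells. Of 10 such markers 6 were listed, while the table holds 14.2% of the authors' tests. Their levels ran from KLK3, at 2476 FPKM (vehicle) and 1599 FPKM (ebastine), to ACPP, at only 2.21 and 5.55 FPKM. FOLH1 stood at 495 and 840 FPKM. Being listed depends on the p-value between the libraries, so the count of listed markers does not measure cell identity. None of 14 basal, stromal, endothelial and leukocyte markers is listed, and since the table holds only genes past the authors' p-value limit, their levels are not known.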

How the data were processed

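Polyadenylated RNA of 2 C4-2 cultures was sequenced, 1 per group. The submitters' processing notes name TopHat2, Cuffdiff and hg19 and give no versions. The deposited FPKM values were estimated and scaled between libraries by the authors' Cuffdiff, per the file headers; the sources used here state no gene models, strand setting or scaling method. The authors' log2 fold change, p-value, q-value and test statistic (a score, not used) come from the same deposited table, which holds only genes with a p-value under 0.05 (0.0499 at most). Sequencing depth is unknown, so no counting interval is given. Locus starts count from 0 in the file and were converted.

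The members and gene lists were chosen with earlier results of these data known. Ratios of a gene between the libraries use a pseudocount of 1 FPKM, and ratios between genes within a library use none. Counts use a mean of at least 1 FPKM and a limit of 1.5-fold. Alternatives were pseudocounts of 0.1 and 5 FPKM, 3 rescalings, other minimum means and a 2-fold limit. Named genes were the 7 members, all listed genes of the glucose metabolism lists, the 2 lowest hypoxia genes and the 2 genes nearest to each member; pairs and markers named were chosen after their values were seen. Lists were matched by symbol and older names. Some list genes are not reported here and were left out of the lists' counts. RefSeq starts were matched by symbol. The functions were tested on simulated data. Python 3.11.15, pandas 2.3.3, numpy 2.4.6 and matplotlib 3.10.9 were used.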

Additional observations from a re-analysis of the deposited data

How the results depend on the processing

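No ratio of the 7 genes changed sign under 5 alternatives (pseudocounts of 0.1 and 5 FPKM, equal sums, equal upper quartiles, centring). The ranges were -0.50 to -0.16 for SLC2A1, -0.63 to -0.28 for HK2, 0.48 to 0.83 for ALDOC, -1.002 to -0.67 for PGK1, -0.77 to -0.41 for ENO2, -0.58 to -0.25 for LDHA and -0.64 to -0.30 for SLC16A3. The median of the 7 was -0.42 with equal upper quartiles and -0.28 after centring. The count of 4 genes at least 1.5-fold lower became 2 with a pseudocount of 5 FPKM, and 1 with equal upper quartiles, after centring or at a limit of 2-fold; the count of 0 higher became 1 with either rescaling. Of the glycolysis list, 3 genes at least 1.5-fold lower became 1 under each of those 4 settings. The share of listed genes at least 1.5-fold lower (18.6%) was 10.1% with a pseudocount of 5 FPKM, 10.8% with equal upper quartiles, 6.9% after centring and 4.86% at 2-fold. The share higher (9.67%) was 14.9% and 4.75% with pseudocounts of 0.1 and 5 FPKM, 21.4% with equal upper quartiles, 39.9% after centring and 1.81% at 2-fold. The cause was not tested beyond the settings' own construction. With 1 library per group, no replicate could be left out. No paired analysis was possible because each group held 1 library.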
